A study of Mus musculus with 6 samples.

Results

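The epidermal growth factor (EGF) receptor family comprises receptor tyrosine kinases of the cell surface and the small ligands that activate them. Described here are 10 of its genes, the ligands Ereg, Areg, Egf, Hbegf, Tgfa, Btc and Epgn and the receptors Egfr, Erbb2 and Erbb3. They were chosen by name around Ereg, whose large difference between the genotypes was already known from these arrays. The values of this comparison are therefore given for the family as a description and are no support for anything. Of the 10 genes, 9 were measured, among 19533 genes in all. The platform's annotation pairs no probe set used here with Areg, so the signal of Areg was not analysed here.

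All 6 arrays hold epithelial cells of the large intestine from germ-free C57BL/6 mice, which live without any microbiota. The cells had been isolated as live cells carrying the epithelial surface protein EpCAM. In the control group, HDAC3FF, 3 mice carried floxed alleles of Hdac3, the gene of a histone deacetylase that works within nuclear corepressor complexes. In the other group, HDAC3ΔIEC, 3 mice lacked Hdac3 within their intestinal epithelial cells. Which driver made the deletion, and how old the mice were, the sources used here do not say. Total RNA from each mouse was hybridised to 1 Affymetrix array, and values are the deposited log2 signals, on which a difference of 1 is a doubling. The comparison asks how epithelial transcripts differ with HDAC3 where no bacteria are present.

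Ligands of this family are made as membrane-anchored precursors, and metalloproteinases such as ADAM17 cut them free. A bound ligand lets receptors pair and phosphorylate each other, which feeds the RAS and ERK cascade, the PI3K and AKT branch and STAT factors. Epiregulin, the product of Ereg, binds the receptors encoded by Egfr and Erbb4. In the intestine this signalling is known for sustaining the proliferation of crypt cells and the repair of the epithelium after injury.

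The arrays had median signals of 5.30 to 5.35 and highest signals of 13.40 to 13.55. Hdac3 itself read 6.96, 7.36 and 7.04 in HDAC3FF and 6.58, 6.22 and 6.00 in HDAC3ΔIEC, a log2 difference of -0.86 ± 0.17 (SE) that did not pass (limma adjusted p = 0.0937). Epcam differed by -0.057 ± 0.10 and the microvillus gene Vil1 by 0.18 ± 0.13 (SE). Among 14 measured genes of colon epithelium, whose summed linear signal was 46711 to 54300 in HDAC3FF and 52457 to 59110 in HDAC3ΔIEC, none passed, and 6 had an unadjusted p under 0.05 in limma. Over all 19533 genes 2192, or 11.2%, had such a p, the share beside which the counts at that threshold are read here. In each group the array of replicate 3 stood apart. HDAC3FF replicate 3 lay farthest from its group's median for 42.5% of genes, against 29.1% and 28.4% for replicates 1 and 2. For HDAC3ΔIEC replicate 3 the share was 43.8%, and neither other HDAC3ΔIEC array exceeded 28.2%. Among the 9 measured members, HDAC3FF replicate 3 gave the highest control signal for 6, and over all genes it did so for 39.2%.

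Ereg was the member that rose, by 8.38-fold on the deposited scale. Its signals were 4.29, 4.70 and 4.69 in HDAC3FF and 7.49, 7.89 and 7.49 in HDAC3ΔIEC. The group means were 4.56 ± 0.23 and 7.62 ± 0.23 (SD, n = 3 each). The lowest HDAC3ΔIEC array stood 2.79 above the highest control array, a gap far wider than the range of 0.41 among the controls. The log2 difference was 3.07 ± 0.16 (SE, 95% interval 2.69 to 3.44). The control signals lie under the arrays' median and were not shown to be above background, so the fold depends on that low level. With each array left out in turn the difference lay between 2.93 and 3.14.

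Of the 9 measured members, Ereg alone passed at a limma adjusted p under 0.05 over all genes, and 8 did not. Of all genes 0.701% passed, 0.369% higher and 0.333% lower in HDAC3ΔIEC. Groups did not overlap for 2 members, Ereg and Btc, and over all genes for 16.2%. Since the family was put together with this contrast in view, nothing is read from these counts. An exact permutation test of a single gene cannot give a two-sided p under 0.1 with 3 against 3 arrays.

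**Figure D1:**
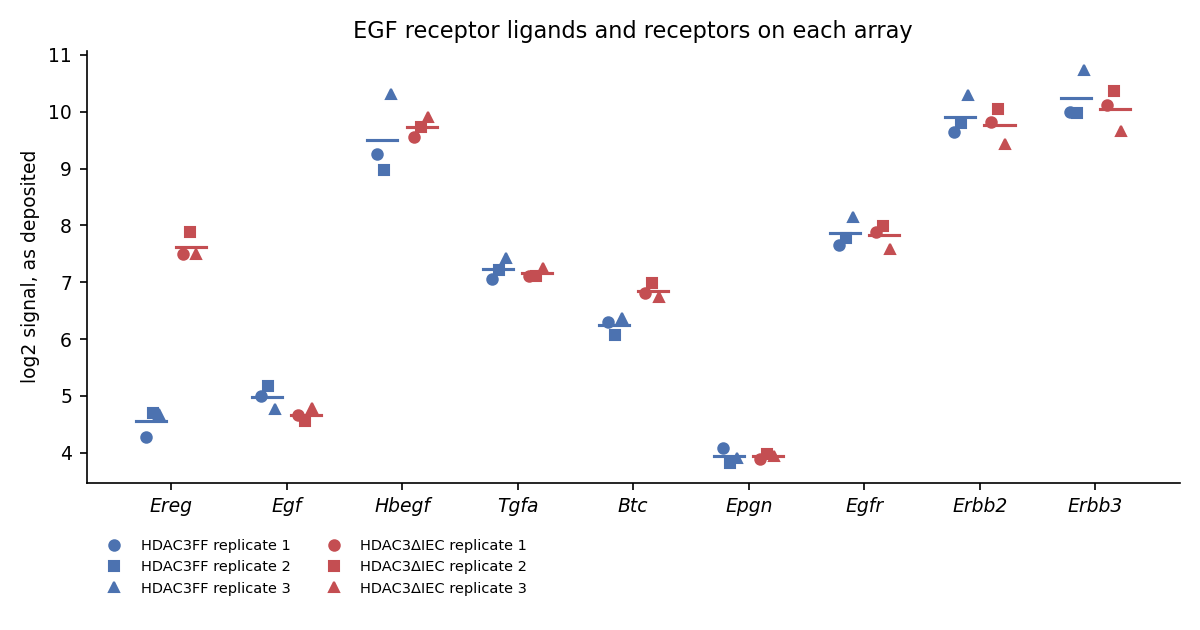
Log2 signal (vertical axis) of the 9 measured family genes on each of the 6 arrays, blue for HDAC3FF and red for HDAC3ΔIEC, with a marker shape per replicate and a line at each group mean. The Ereg groups lie 2.79 apart at their nearest, the Btc groups are separate but close, and the other 7 genes have overlapping groups.

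Btc, the gene of betacellulin, which activates the same receptors as epiregulin, was the other ligand with separate groups. It read 6.30, 6.08 and 6.38 in HDAC3FF and 6.81, 6.99 and 6.75 in HDAC3ΔIEC, so that every HDAC3ΔIEC array was above every control. The log2 difference was 0.60 ± 0.11 (SE, 95% interval 0.34 to 0.86), or 1.51-fold, and it did not pass over all genes. Without HDAC3FF replicate 3 it was 0.66 ± 0.12 (SE) and passed, in a fit where 430 of all genes passed. With each array left out in turn the Btc difference lay between 0.51 and 0.66, with limma adjusted p from 0.0436 to 0.296.

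The remaining ligands differed by less, with groups that overlapped. Egf, the gene of the founding ligand, read 4.999, 5.18 and 4.76 in HDAC3FF and 4.66, 4.56 and 4.79 in HDAC3ΔIEC, all under the arrays' median signals. Its difference was -0.31 ± 0.13 (SE, 95% interval -0.60 to -0.015). Only HDAC3ΔIEC replicate 3 reached into the control range, and only past its lowest array. Epgn, which encodes epigen, read 4.08, 3.82 and 3.91 in HDAC3FF and 3.89, 3.99 and 3.94 in HDAC3ΔIEC. Its mean signal lies below the 25th percentile of genes, marks of detection above background are not among the values used here, and the 95% interval of the difference ran from -0.22 to 0.22.

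Hbegf, the gene of heparin-binding EGF-like growth factor, had the widest spread of the family among the controls. It read 9.25, 8.98 and 10.30 in HDAC3FF and 9.55, 9.73 and 9.91 in HDAC3ΔIEC. All 3 HDAC3ΔIEC signals lay above control replicates 1 and 2 and below control replicate 3. The difference was 0.22 ± 0.32 (SE, 95% interval -0.53 to 0.97), and without HDAC3FF replicate 3 it was 0.62 ± 0.14 (SE), which did not pass. Without HDAC3FF replicate 2 it was -0.049. Tgfa, the gene of transforming growth factor alpha, read 7.06, 7.21 and 7.43 in HDAC3FF and 7.11, 7.11 and 7.24 in HDAC3ΔIEC. Every HDAC3ΔIEC signal of Tgfa fell inside the control range, and the difference of -0.077 ± 0.11 (SE) had a 95% interval of -0.34 to 0.19.

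The receptors did not separate the genotypes. Egfr, the receptor for epiregulin and most of its relatives, read 7.65, 7.78 and 8.14 in HDAC3FF and 7.89, 7.998 and 7.59 in HDAC3ΔIEC, a difference of -0.033 ± 0.16 (SE, 95% interval -0.41 to 0.34). Erbb2, whose product has no ligand of its own and acts as a partner, read 9.64, 9.80 and 10.29 in HDAC3FF and 9.82, 10.05 and 9.44 in HDAC3ΔIEC. The Erbb2 difference was -0.14 ± 0.21 (SE, 95% interval -0.63 to 0.35). Erbb3, a neuregulin receptor with weak kinase activity, read 10.001, 9.97 and 10.73 in HDAC3FF and 10.11, 10.37 and 9.65 in HDAC3ΔIEC, with a difference of -0.19 ± 0.25 (SE, 95% interval -0.78 to 0.40).

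The same arrays were at the ends for all 3 receptors. HDAC3FF replicate 3 gave the highest signal of the 6 arrays, HDAC3ΔIEC replicate 2 the next, and for Egfr, Erbb2 and Erbb3 alike HDAC3ΔIEC replicate 3 the lowest. Without HDAC3FF replicate 3 the differences were 0.11, 0.047 and 0.057 for Egfr, Erbb2 and Erbb3, and without HDAC3ΔIEC replicate 3 they were 0.087, 0.021 and 0.0063. Their sign thus turned with either array, and none passed.

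Erbb4, the other receptor for epiregulin, and the neuregulins, ligands of Erbb3 and Erbb4, were looked at beside the family. Erbb4 read 3.76 to 3.90 in HDAC3FF and 3.78 to 3.88 in HDAC3ΔIEC, likewise below the 25th percentile in mean signal, and differed by -0.0094 ± 0.083 (SE). None of these 5 genes passed, and 1, Nrg4, had an unadjusted p under 0.05 in limma, against 11.2% of all genes. Nrg4 read 4.17, 4.02 and 3.77 in HDAC3FF and 3.65, 3.75 and 3.72 in HDAC3ΔIEC, just below every control. Its difference was -0.28 ± 0.12 (SE, limma adjusted p = 0.425), and its mean signal, like those of Nrg1 and Nrg3, lay below the 25th percentile. Nrg1, Nrg2 and Nrg3 differed by -0.087 ± 0.13, 0.023 ± 0.10 and 0.063 ± 0.081 (SE).

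**Figure D2:**
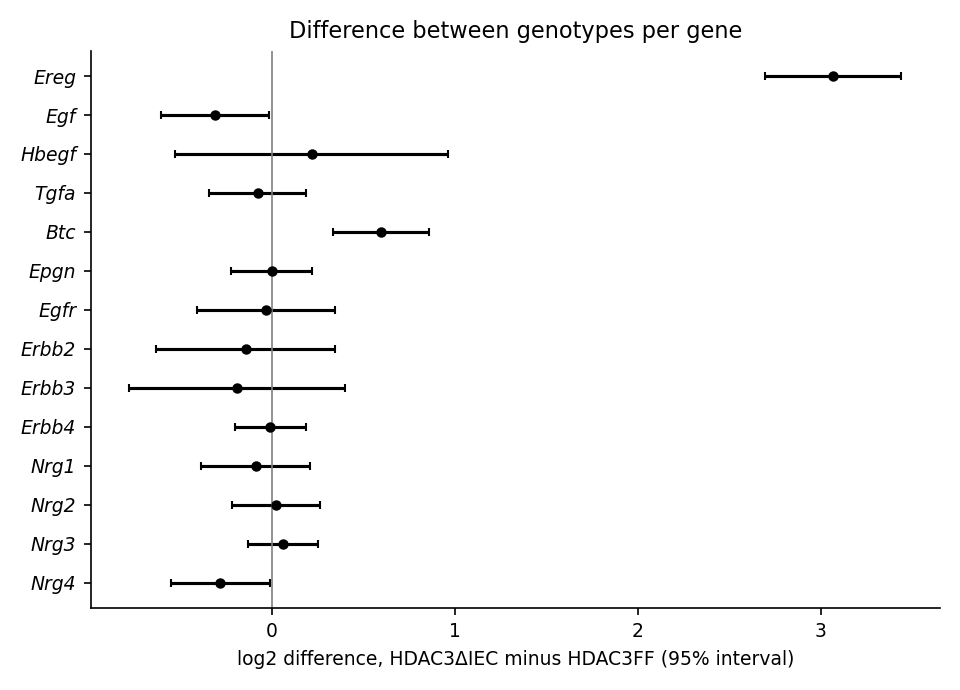
Log2 difference, HDAC3ΔIEC minus HDAC3FF (horizontal axis), of the 9 family genes and of Erbb4 and the neuregulins, with limma's 95% interval as bars. The interval of Ereg runs from 2.69 to 3.44 and that of Btc from 0.34 to 0.86, whereas those of all 4 receptors contain 0. The intervals of Egf (-0.60 to -0.015) and Nrg4 (-0.55 to -0.0099) lie below 0.

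Ereg, Areg, Btc and Epgn are neighbours on mouse chromosome 5 in RefSeq's annotation of assembly GRCm38.p6. Within 500000 bases on either side of the start of Ereg, 21 genes are annotated and 13 were measured, 10 of them outside the family. In chromosome order these are Rassf6, Cxcl5, Ppbp, Pf4, Cxcl3, Cxcl15, Cxcl1, Cxcl2, Mthfd2l, Epgn, Ereg, Btc and Parm1, with a chemokine cluster on one side. None of the 10 passed, and 2, Cxcl5 and Pf4, had an unadjusted p under 0.05 in limma, against 11.2% of all genes. Their differences ran from -0.052 for Parm1, a mucin-like membrane protein, to 0.34 for Cxcl5, a neutrophil-attracting chemokine. Mthfd2l, a mitochondrial folate enzyme and the last measured gene before Epgn, differed by 0.16 ± 0.15 (SE). The other differences were 0.087 for Rassf6, 0.095 for Ppbp, 0.30 for Pf4, 0.0020 for Cxcl3, 0.036 for Cxcl15, 0.065 for Cxcl1 and 0.18 for Cxcl2. Cxcl15, Ppbp and Cxcl2 had mean signals of 2.98, 3.35 and 3.52, below the 25th percentile of genes. Pf4, Cxcl5 and Cxcl3, at 4.12, 4.23 and 4.63, lay below the median of all genes. Small differences in these dim genes say little of whether they changed.

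**Figure D3:**
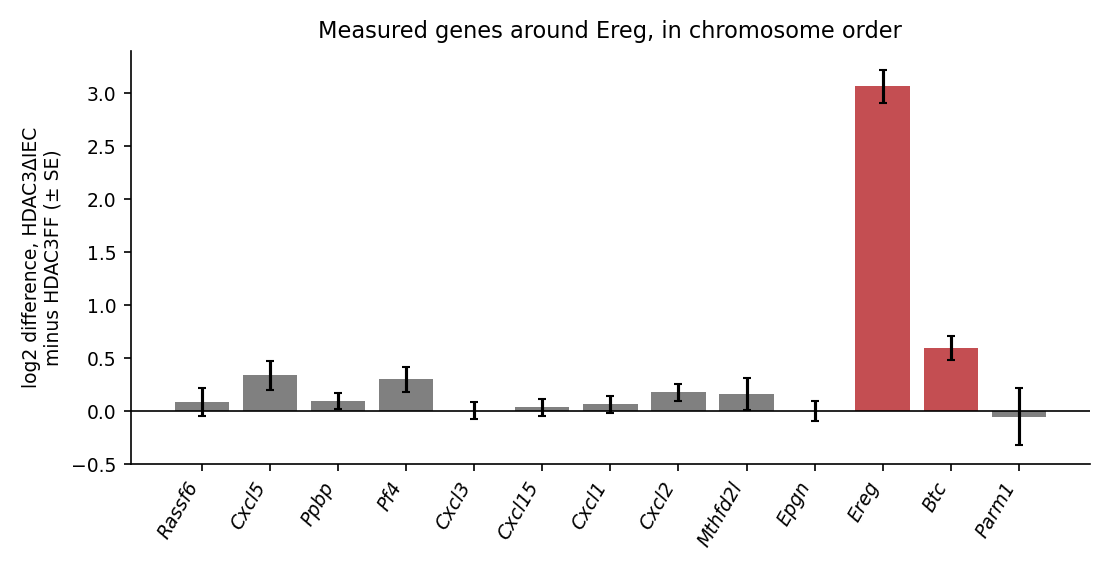
Log2 difference, HDAC3ΔIEC minus HDAC3FF (vertical axis, bars with limma's SE), of the 13 measured genes around Ereg in chromosome order, family members in red. Ereg stands at 3.07 and Btc at 0.60, and the genes outside the family lie between -0.052 and 0.34. Cxcl15, Ppbp and Cxcl2 had mean signals below the 25th percentile of genes.

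Sequences before the start of Epgn and Btc are shown because these genes flank the Ereg and Areg pair and differed unlike Ereg. RefSeq's promoter table for GRCm38.p6 was used for 7 of the 10 family members. It gave no entry for Ereg. Searched on both strands in windows of 250 bases before to 50 bases after the start were TATAAA (the TATA box), TGACGTCA (the cyclic AMP response element), TGANTCA (the AP-1 site), AGGTCA (the nuclear receptor half-site) and GGGCGG (the GC box). Among all promoters listed there, 13.6%, 1.79%, 7.81%, 16.3% and 35.7% held each of these. The stretch before Epgn, chr5:91027267-91027516 on the plus strand, held TATAAA at -86, in capitals, and none of the others. The stretch before Btc, chr5:91402995-91403244 on the minus strand, held none of the 5. Other members searched held matches too. The window of Areg held TATAAA at -31, TGACGTCA at -61 and GGGCGG on both strands. The windows of Tgfa and Egfr held GGGCGG. A match here is a match of letters and no evidence of a bound factor.
Epgn: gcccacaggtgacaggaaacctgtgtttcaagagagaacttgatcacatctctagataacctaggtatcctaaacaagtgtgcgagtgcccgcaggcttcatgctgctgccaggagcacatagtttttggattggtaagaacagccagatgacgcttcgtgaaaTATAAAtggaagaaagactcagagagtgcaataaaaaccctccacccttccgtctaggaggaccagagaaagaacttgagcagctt
Btc: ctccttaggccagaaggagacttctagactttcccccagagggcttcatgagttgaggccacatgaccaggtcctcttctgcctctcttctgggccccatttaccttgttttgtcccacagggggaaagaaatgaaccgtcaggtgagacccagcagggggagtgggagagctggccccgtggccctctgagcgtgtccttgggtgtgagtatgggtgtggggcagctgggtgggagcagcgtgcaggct

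Genes with a profile most like that of Ereg were ranked by the root mean square difference over the 6 arrays between profiles centred on their own mean. The nearest were Ppy at 0.118, Ckb at 0.144, Insl5 at 0.351, Slc25a45 at 0.368 and Mgll at 0.375, against a median of 1.54 over all genes outside the family. Ppy encodes pancreatic polypeptide, Ckb a creatine kinase, Insl5 an insulin-like peptide, Slc25a45 a mitochondrial carrier and Mgll monoacylglycerol lipase. Their log2 differences were 3.07, 2.83, 3.07, 2.71 and 2.45. Ppy and Ckb, like Ereg, were lowest in HDAC3FF replicate 1 among the controls and highest in HDAC3ΔIEC replicate 2 of all arrays. Such a ranking on 6 arrays is led by the difference between the groups.

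Beyond the receptors and ligands, 8 lists of pathway genes were looked at, the one of Erbb4 and the neuregulins included, and they hold 116 measured genes, some on more than 1 list. Of these, Phlda1 rose, Timp3 fell and 114 did not pass, so that 1.72% passed against 0.701% of all genes. Groups did not overlap for 25 of the 116, or 21.6%, against 16.2% of all genes. The lists were written with earlier results of these data known, so nothing is read from their counts, shares and medians here or below. The count of passing genes depended on single arrays. It was 0 without HDAC3FF replicate 1 or without any of HDAC3ΔIEC replicates 1, 2 and 3, it was 2 without HDAC3FF replicate 2, and 7, or 6.03%, without HDAC3FF replicate 3, where 2.20% of all genes passed.

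Timp3 was the passing gene among 13 that govern the release and trafficking of the ligands. It encodes a metalloproteinase inhibitor that blocks ADAM17. Its signals were 6.49, 7.41 and 6.79 in HDAC3FF and 4.95, 5.16 and 4.71 in HDAC3ΔIEC. The highest HDAC3ΔIEC array was thus well below the lowest control, at a log2 difference of -1.96 ± 0.23 (SE, limma adjusted p = 0.0262). It no longer passed when HDAC3FF replicate 1 was omitted (limma adjusted p = 0.0633), nor when HDAC3ΔIEC replicate 1, 2 or 3 was (0.0922, 0.110 and 0.0760). Omitting each of the 6 arrays gave values of 0.0196 to 0.110.

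The other 12 genes of this list did not pass. Of all 13, 6 had an unadjusted p under 0.05 in limma, against 11.2% of all genes. Groups did not overlap for 3 of them, against 16.2% of all genes. Differences ran both ways, from -1.96 to 0.61, and the list's median was 0.00079, against 0.011 over all genes. The values that follow were picked after they were seen. Adam17 and Adam10, the sheddases themselves, differed by -0.27 ± 0.11 and 0.012 ± 0.075 (SE). Rhbdf2 and Frmd8, whose products carry ADAM17 to the surface and hold it there, differed by 0.39 ± 0.15 and 0.61 ± 0.14 (SE, limma adjusted p = 0.391 and 0.127). Rhbdl2, an intramembrane protease, differed by -0.79 ± 0.23 (SE, limma adjusted p = 0.228).

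None of 20 feedback inhibitors of the receptors passed, while 5 had an unadjusted p under 0.05 in limma (11.2% of all genes had), and the median was 0.10. Dusp6, a phosphatase that switches off ERK, had the smallest p. It read 7.91, 8.47 and 8.76 in HDAC3FF and 9.30, 9.84 and 9.43 in HDAC3ΔIEC, higher on every HDAC3ΔIEC array, at a difference of 1.14 ± 0.23 (SE, limma adjusted p = 0.0956). Lrig3, a membrane protein related to the receptor inhibitor LRIG1, read 7.86, 7.98 and 7.38 in HDAC3FF and 7.10, 6.97 and 6.75 in HDAC3ΔIEC. Every HDAC3ΔIEC array was lower, at a difference of -0.80 ± 0.17 (SE, limma adjusted p = 0.111). Without HDAC3FF replicate 3 Dusp6 (1.33), Dusp5 (0.57) and Lrig3 (-0.98) passed. Over the arrays left out in turn, the limma adjusted p ran from 0.0311 to 0.319 for Dusp6 and from 0.0177 to 0.338 for Lrig3.

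Phlda1, a gene induced by growth factors that restrains AKT, was the passing gene among 26 that respond to ERK. It read 8.60, 9.16 and 8.82 in HDAC3FF and 10.05, 10.07 and 10.20 in HDAC3ΔIEC, with no overlap, at a log2 difference of 1.25 ± 0.14 (SE, limma adjusted p = 0.0239). Omitting HDAC3FF replicate 1 ended the call (limma adjusted p = 0.0884), as did omitting HDAC3ΔIEC replicate 1, 2 or 3 (0.0749, 0.129 and 0.0760). The 6 omissions gave values of 0.0172 to 0.129. Of the 26, 18 had a difference above 0 and 8 below it, against 53.5% above 0 over all genes. An unadjusted p under 0.05 in limma was found for 10, against 11.2% of all genes, and the median was 0.21, against 0.011 over all genes. The list was written with earlier results of these data known, so these values are a description only. Without HDAC3FF replicate 3, 5 of the list passed, namely Phlda1, Dusp5, Dusp6, Epha2 and Plaur, all higher, and of all genes 2.20% passed, 430 in number. The feedback inhibitors share 6 genes with this list, Dusp4, Dusp5 and Dusp6 among them, so the counts of both lists are not separate observations.

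Values of other genes of the ERK list, picked after they were seen, went in different directions. Epha2, an ephrin receptor, read 6.48, 6.83 and 7.57 in HDAC3FF and 8.30, 8.43 and 8.20 in HDAC3ΔIEC, and Ier3 and the AP-1 subunit gene Fosl1 likewise had separate groups. The differences were 1.35 ± 0.25, 0.93 ± 0.16 and 0.62 ± 0.10 (SE), with limma adjusted p of 0.0793, 0.0652 and 0.0532, so none passed. Ier2, an immediate early gene like Ier3, was lower on every HDAC3ΔIEC array (-0.42 ± 0.16, SE, limma adjusted p = 0.385). The immediate early genes Fos and Egr1 and the stress-induced Atf3 had overlapping groups, with differences of 0.052 ± 0.31, -0.68 ± 0.32 and -0.015 ± 0.38 (SE). For these 3 genes HDAC3FF replicate 3 gave the highest signal of all arrays, at 10.71, 10.29 and 11.41. It was the highest control for 19 of the 26, or 73.1%, against 39.2% of all genes, as it was for Hbegf and the feedback inhibitor gene Errfi1 (11.30).

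**Figure D4:**
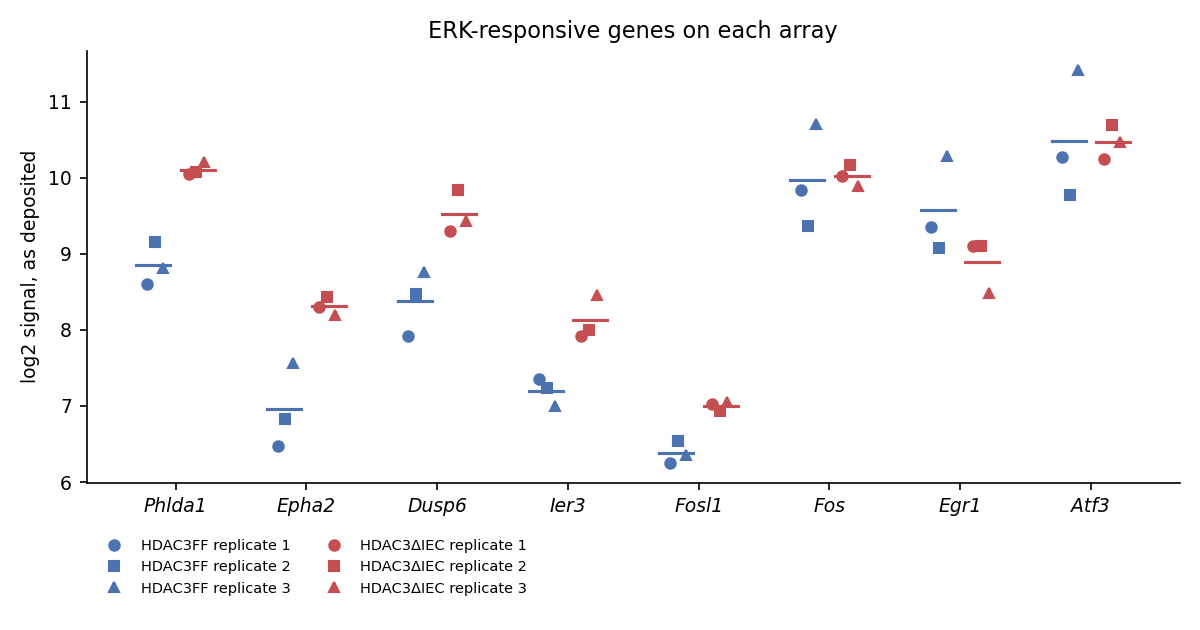
Log2 signal (vertical axis) of 8 ERK-responsive genes on each of the 6 arrays, blue for HDAC3FF and red for HDAC3ΔIEC, with a marker shape per replicate and a line at each group mean. Phlda1, Epha2, Dusp6, Ier3 and Fosl1 have separate groups, while for Fos, Egr1 and Atf3 the control of replicate 3 lies above all other arrays.

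The signalling chain between receptor and nucleus showed no passing gene. Of 14 measured genes, of 20 listed, of the RAS and ERK cascade none passed and 1 had an unadjusted p under 0.05 in limma, against 11.2% of all genes, with a median of 0.0077. That gene was Map2k2, a kinase that activates ERK (0.45 ± 0.14, SE, limma adjusted p = 0.267), followed by the ribosomal S6 kinase gene Rps6ka3 (-0.22 ± 0.12, SE). Of 18 genes of the PI3K, phospholipase C gamma and STAT branches none passed and 4 had an unadjusted p under 0.05 in limma, against the same 11.2%, with a median of -0.060. Pik3r3, a regulatory subunit of PI3K, read 8.34, 8.19 and 8.73 in HDAC3FF and 7.46, 7.57 and 6.93 in HDAC3ΔIEC, lower on every array (-1.10 ± 0.20, SE, limma adjusted p = 0.0784). The related subunit gene Pik3r1 differed by -0.38 ± 0.083 (SE, limma adjusted p = 0.113).

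Prostaglandins and the coactivator YAP are known to act upstream of epiregulin in other settings, and their genes were looked at for that reason. None of 11 prostaglandin genes passed and 2 had an unadjusted p under 0.05 in limma, against 11.2% of all genes, with a median of -0.034. Hpgd, which degrades prostaglandins, read 11.56, 11.49 and 11.83 in HDAC3FF and 10.93, 10.46 and 10.05 in HDAC3ΔIEC, with no overlap (-1.15 ± 0.22, SE, limma adjusted p = 0.0793). The receptor gene Ptger3, with all signals under the arrays' medians, was also lower on every HDAC3ΔIEC array (-0.71 ± 0.12, SE, limma adjusted p = 0.0621). The inducible synthase gene Ptgs2 read 4.01 to 4.30 in HDAC3FF and 4.27 to 4.31 in HDAC3ΔIEC, and the receptor gene Ptger4 differed by -0.23 ± 0.20 (SE). Of 15 YAP targets and genes of regenerating epithelium none passed and 2 had an unadjusted p under 0.05 in limma, a share near the 11.2% of all genes, with a median of -0.023. These were Il1rn, an interleukin-1 receptor antagonist (1.23 ± 0.25, SE, limma adjusted p = 0.100), and the annexin gene Anxa3 (0.56 ± 0.19, SE, limma adjusted p = 0.295).

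**Figure D5:**
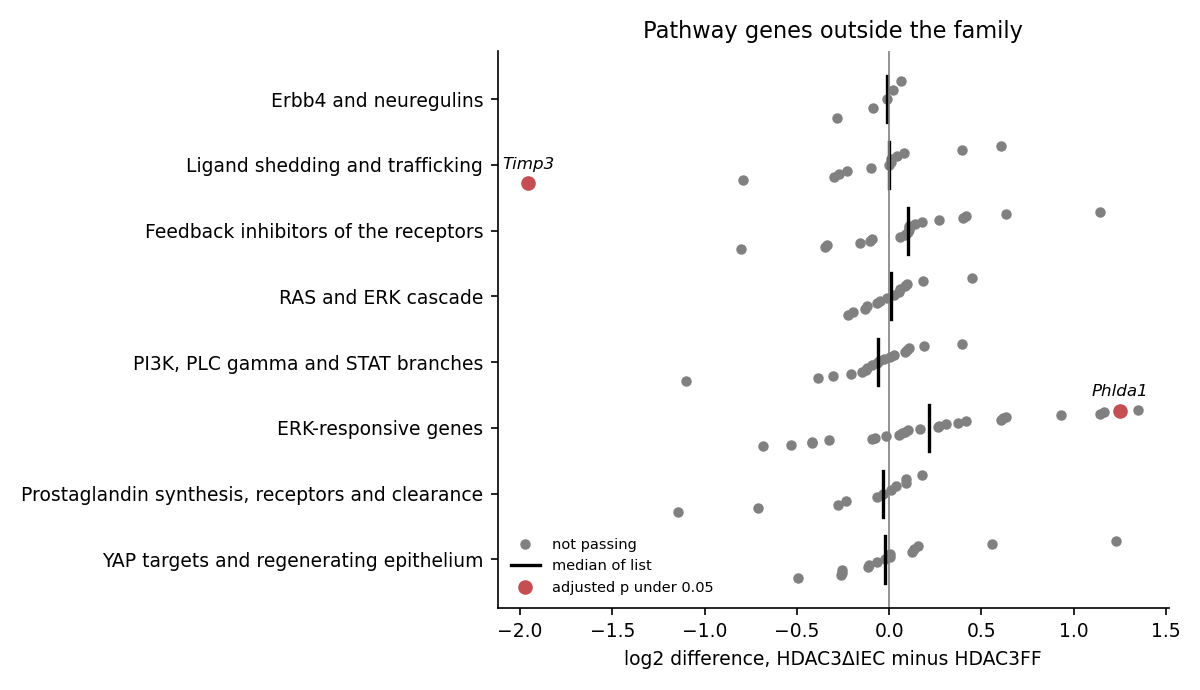
Log2 difference, HDAC3ΔIEC minus HDAC3FF (horizontal axis), of each measured gene of the 8 pathway lists, with the list median as a black line and passing genes in red. Timp3 at -1.96 and Phlda1 at 1.25 passed, and the medians of the lists lie between -0.060 and 0.21.

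Ereg is also made by cells other than epithelium, and in bulk RNA a change in the number of cells of a type and a change in RNA per cell cannot be told apart. Of 16 myeloid markers 1 fell, C1qa (-1.71 ± 0.19, SE, limma adjusted p = 0.0204), and none rose, where 0.701% of all genes passed. An unadjusted p under 0.05 in limma was found for 4 of the 16, against 11.2% of all genes, and the median was -0.048. The myeloid markers' summed linear signal was 618 to 692 in HDAC3FF and 499 to 574 in HDAC3ΔIEC, and 13 of the 16 were below the median of all genes. C1qa and Cd14 (-0.40 ± 0.16, SE) carried that difference, since the other 14 summed to 266 to 289 in HDAC3FF and 285 to 306 in HDAC3ΔIEC, which overlap. None of 12 T and NK cell, 9 B and plasma cell, 13 fibroblast and muscle, 9 endothelial and 8 neuron and glia markers passed. At an unadjusted p under 0.05 in limma there were 2, 1, 1, 0 and 1, against 11.2% of all genes. Summed signals were higher in HDAC3ΔIEC without overlap for the neuron and glia markers (205 to 239 against 247 to 271) and the B and plasma cell markers (371 to 385 against 387 to 443). Without Sdc1, which epithelium also expresses, the B and plasma cell sums overlapped (205 to 230 against 203 to 229), and without Ret those of neurons and glia did (169 to 192 against 188 to 215). These sums without the named genes were added after seeing the data. Sdc1 and Ret were each higher on every HDAC3ΔIEC array than on any control. Leaving them out therefore draws the sums together, and nothing is concluded from that overlap. The full sums overlapped for T and NK cells (250 to 267 against 233 to 262), fibroblasts and muscle (451 to 529 against 477 to 538) and endothelium (202 to 234 against 219 to 237). The part of these cells in the rise of Ereg was not tested.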

How the data were processed

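Total RNA of the 6 samples was extracted with Trizol and the arrays were stained with streptavidin-phycoerythrin, per the labels' protocols. The authors deposited log2 signals per probe set, made with Affymetrix Power Tools per the submitters' processing notes. The normalization, the background correction and the tool's version are not stated in the labels. Values were used as deposited. Of the probe sets, 21105 name 1 gene, 1254 several and 2580 none here. Where a gene had more than 1, the probe set with the highest mean was kept, which left 19533 genes, with 1 probe set for each measured family member.

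The genotypes were compared with limma 3.58.1 in R 4.3.3 (lmFit and eBayes, two-sided, no covariate), with Benjamini-Hochberg adjustment over all genes and a threshold of 0.05. Errors are limma's moderated SE. The fit was tested on simulated data. A search for the EGF-like motif in the proteins was planned and not run, since protein sequences were not used here. Replicates were 3 mice per group, and the number of arrays limits the precision.

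The members and gene lists were chosen with earlier results of these data known. Named are all members, Erbb4 and the neuregulins, up to 3 passing genes per list (by size) or else the 2 with the smallest p, all measured genes within 500000 bases of Ereg, the 5 genes most like Ereg, Hdac3, Epcam and Vil1, and of the cell markers only those passing or among the brightest. Other names were picked after seeing values. Replicate numbers were not used to pair the arrays in the analysis reported. The alternatives tried comprised the replicate number as a block, a robust or intensity-dependent prior, array weights, quantile normalization, centring on the median, filters on dim genes, the mean of all probe sets, a threshold of 0.10 and leaving out each array.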

Additional observations from a re-analysis of the deposited data

How the results depend on the processing

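Ereg kept its direction and passed under all 16 alternatives, and Btc and Egf also kept their direction in each one that measured them; the filter at the median of all genes left out Egf, Epgn, Erbb4 and the neuregulins. Of the 9 members, 1 passed in the analysis reported, and 2 with array weights or at a threshold of 0.10. With arrays left out in turn, 1 to 2 members, 0 to 7 pathway genes and 13 to 430 of all genes passed. Against 2 pathway genes reported, 5 passed with an intensity trend, 11 with array weights, 4 and 6 with genes under the 25th percentile or the median of signal left out, and 9 at a threshold of 0.10. Against 137 of all genes, 357 passed with array weights and 321 at a threshold of 0.10. With the replicate block 1 member, 0 pathway genes and 12 of all genes passed. Deviations of same-numbered arrays correlated at -0.02, -0.07 and -0.20 over genes and 0 of 6 arrays correlated best with its own number, so the numbers do not pair the arrays. None of the 10 neighbours of Ereg passed under the alternatives, of which the filters on dim genes tested 7 and 4 of them.

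Differences near 0 changed sign. With array weights they were 0.10 for Egfr, 0.033 for Erbb2, 0.022 for Erbb3, 0.19 for Parm1 and -0.00083 for Cxcl3, which was -0.0019 with quantile normalization. With centring on the median they were 0.014 for Epgn and 0.0054 for Erbb4. With arrays left out they ran from -0.14 to 0.11 for Egfr, -0.28 to 0.047 for Erbb2, -0.35 to 0.057 for Erbb3, -0.049 to 0.62 for Hbegf, -0.16 to 0.020 for Tgfa, -0.059 to 0.069 for Epgn, -0.042 to 0.032 for Erbb4, -0.045 to 0.11 for Nrg2, -0.21 to 0.23 for Parm1, -0.034 to 0.21 for Rassf6, -0.0058 to 0.27 for Mthfd2l, -0.012 to 0.076 for Cxcl15 and -0.029 to 0.044 for Cxcl3. The cause was not tested. With 3 arrays a group, and no marks of detection above background among the values used here, little can be said of the dim genes. These include Epgn, Egf, Erbb4, Nrg1, Nrg3, Nrg4, Ptger3 and the dimmer neighbours of Ereg. The same holds for the control level of Ereg.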
